A study of Mus musculus with 4 samples.

Results

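Interferon-stimulated antiviral genes were followed in 4 RNA-seq libraries of CT26, a colon carcinoma line of the mouse. The set held 42 genes chosen by symbol: antiviral effectors that interferon induces, and the STAT2 and IRF9 subunits of the transcription factor ISGF3. Nucleic acid sensors that only detect RNA or DNA and the guanylate binding proteins were not part of it. All 42 symbols were found, once each, among the 55335 gene identifiers of the deposited table. Levels are given as FPKM, fragments scaled by transcript length and by the size of the library, so that genes can be compared with each other. A gene was tested if 2 or more libraries reached 1 FPKM, which held for all 42 genes and for 11955 genes in all. The choice of genes used no measured value, although it was made with earlier results of these data known.

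The libraries differ in 2 ways. Their titles combine a stem, CT26_102 or CT26_CTL, with a suffix, none or R, and each combination is 1 library. CT26_102 and CT26_CTL are labelled FOSL2-WT with PBS, and CT26_102_R and CT26_CTL_R are labelled FOSL2-KO with chemoradiotherapy. Genotype and treatment therefore change together with the suffix and cannot be told apart. The series' design text speaks of KD cells instead. The labels do not say what separates the stems, and they name neither a dose nor a time. Fosl2 transcript, at 9.35, 16.0, 12.7 and 19.2 FPKM, was not lower where the label reads FOSL2-KO. Wherever 4 values are listed, the CT26_102 pair comes first and the CT26_CTL pair second, each without and then with R. Estimated depth was 21700000 to 26440000 reads, so 1 read in a transcript of 2 kilobases was worth 0.0189 to 0.0230 FPKM. The labels mention no separate cultures, and with 1 library per combination no spread between repeats could be measured. The spread that p-values use here is between libraries of unlike combinations. It may be partly technical, which cannot be told apart.

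Type I interferons bind a receptor made of IFNAR1 and IFNAR2, whose kinases JAK1 and TYK2 phosphorylate STAT proteins. STAT2 and IRF9 are part of the resulting factor ISGF3, which binds the interferon-stimulated response element in promoters and induces a broad antiviral program. Its products block viral entry, degrade or sequester viral RNA, halt translation or damp the signal again, and tumour cells can use the same program without a virus.

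Of the 42 genes, 32 had a promoter window in the RefSeq table for GRCm38.p6, which spans 250 bases before to 50 after each annotated transcript start. The response element core was searched as GAAA, any 2 bases and GAAA again, on both strands, so that it can also read TTTC, any 2 bases and TTTC, and overlapping hits were counted separately. At least 1 core was in a window of 14 of the 32 genes (43.8%), against 3.99% of the 27025 genes in the table, and 2 or more in 1 window of 9 genes (28.1%), against 0.266%. Of the 11 genes with a window that rose with suffix R in the tests described here, 8 held a core (72.7%). Of the 7 that were higher in stem CT26_CTL without passing for the suffix, 1 did (14.3%). Of the 14 that passed in neither, 5 did (35.7%). The 8 include the copies Ifit3 and Ifit3b and the related Oas1a and Oas1g, so they are not all separate cases. Genes without a window are missing from each of these groups. The gamma-activated site, searched as TTC, any 3 bases and GAA on both strands, was in a window of 8 of 32 genes (25.0%), against 9.55% of all. These matches are letters in a window and say nothing about binding.

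The upstream 250 bases are shown for genes on which the results turn, on the strand of the gene, with the core in capitals. Isg15 held 3 overlapping cores in a row, starting 78, 72 and 66 bases before the transcript start. Ifit1, Ifit3 and Ifit3b each held 2 separate cores, and those of Oas1a and Oas1g lay within 20 bases of the start. Bst2 is shown as the single gene with a core among those higher in CT26_CTL that did not pass for suffix R, and Phf11d as a gene of that kind with none.
Isg15 (chr4:156200819-156201068, minus strand): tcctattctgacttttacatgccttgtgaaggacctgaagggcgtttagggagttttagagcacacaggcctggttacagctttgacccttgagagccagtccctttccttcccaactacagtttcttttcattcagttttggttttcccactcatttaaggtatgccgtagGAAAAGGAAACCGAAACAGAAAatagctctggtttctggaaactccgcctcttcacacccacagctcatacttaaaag
Ifit1 (chr19:34640639-34640888, plus strand): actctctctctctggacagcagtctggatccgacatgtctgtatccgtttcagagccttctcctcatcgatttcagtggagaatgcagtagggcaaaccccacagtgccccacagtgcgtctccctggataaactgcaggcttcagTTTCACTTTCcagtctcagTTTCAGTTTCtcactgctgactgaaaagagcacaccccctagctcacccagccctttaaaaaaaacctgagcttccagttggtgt
Ifit3 (chr19:34583279-34583528, plus strand): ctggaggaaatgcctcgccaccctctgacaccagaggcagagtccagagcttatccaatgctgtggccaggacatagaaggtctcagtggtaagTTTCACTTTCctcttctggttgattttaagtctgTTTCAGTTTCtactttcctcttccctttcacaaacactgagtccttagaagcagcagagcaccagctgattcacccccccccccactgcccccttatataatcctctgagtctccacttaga
Ifit3b (chr19:34607707-34607956, plus strand): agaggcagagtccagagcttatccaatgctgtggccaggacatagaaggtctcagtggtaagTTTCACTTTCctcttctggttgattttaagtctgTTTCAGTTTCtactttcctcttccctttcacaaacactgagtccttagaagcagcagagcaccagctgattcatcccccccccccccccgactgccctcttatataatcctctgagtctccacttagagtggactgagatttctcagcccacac
Oas1a (chr5:120907526-120907775, minus strand): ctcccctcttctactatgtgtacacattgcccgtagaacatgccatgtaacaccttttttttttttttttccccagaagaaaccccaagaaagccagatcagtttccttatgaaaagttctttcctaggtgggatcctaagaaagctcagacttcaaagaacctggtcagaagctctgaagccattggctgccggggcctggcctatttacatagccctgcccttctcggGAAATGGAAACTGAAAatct
Oas1g (chr5:120887614-120887863, minus strand): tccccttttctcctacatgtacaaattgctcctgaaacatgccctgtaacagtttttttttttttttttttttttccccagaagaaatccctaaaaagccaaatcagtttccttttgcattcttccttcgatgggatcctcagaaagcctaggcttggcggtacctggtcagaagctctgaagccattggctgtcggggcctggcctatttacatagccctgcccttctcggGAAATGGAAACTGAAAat
Bst2 (chr8:71537473-71537722, minus strand): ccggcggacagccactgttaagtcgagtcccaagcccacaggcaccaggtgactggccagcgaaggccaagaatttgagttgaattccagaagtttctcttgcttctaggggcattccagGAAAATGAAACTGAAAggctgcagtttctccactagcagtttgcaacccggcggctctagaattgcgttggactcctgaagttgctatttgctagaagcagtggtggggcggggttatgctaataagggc
Phf11d (chr14:59365491-59365740, minus strand): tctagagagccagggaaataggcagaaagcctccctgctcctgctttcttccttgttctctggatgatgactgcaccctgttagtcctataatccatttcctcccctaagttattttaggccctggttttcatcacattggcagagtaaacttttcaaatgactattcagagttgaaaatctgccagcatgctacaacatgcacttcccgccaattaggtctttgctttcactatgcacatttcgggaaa
The windows of the neighbouring copies Ifit3 and Ifit3b were identical at 188 of 218 bases (86.2%) in the best alignment without gaps, and those of Oas1a and Oas1g at 158 of 248 (63.7%). In Ifitm3 both cores began after the transcript start, at positions 3 and 20 of the transcript.

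**Figure D1:**
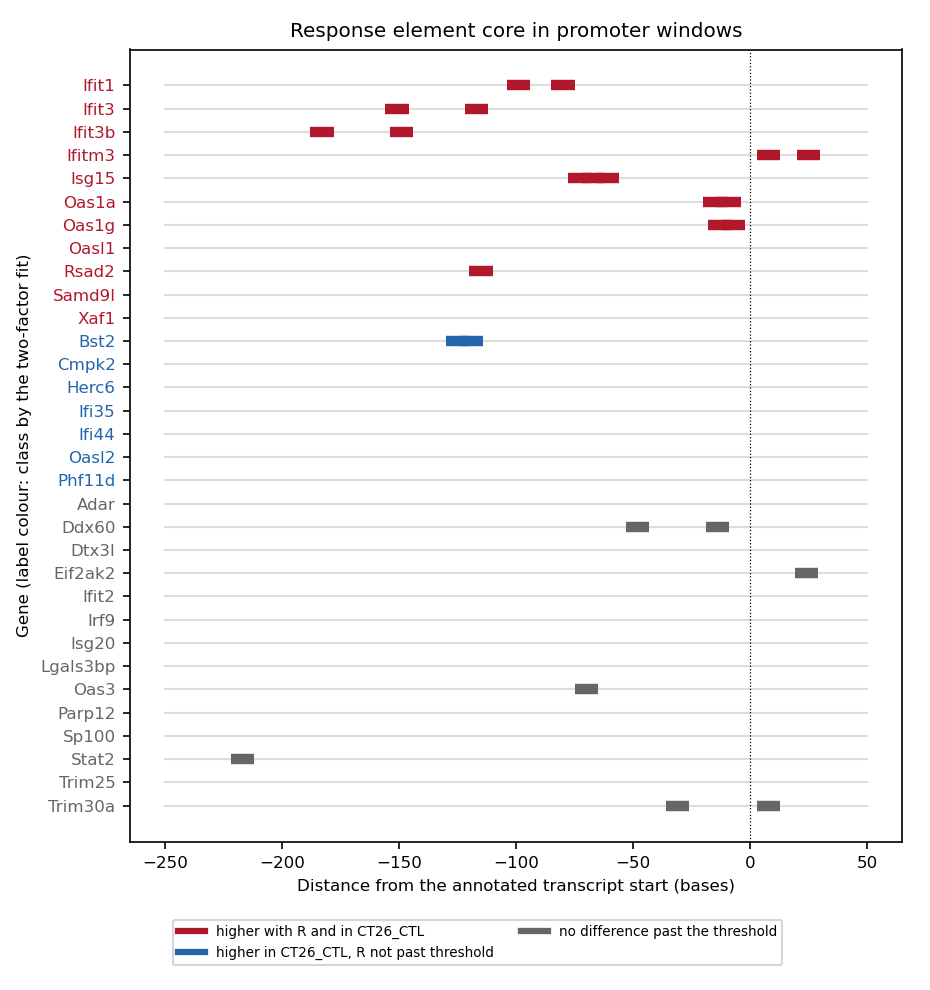
Position of each match to the response element core (thick bars, 10 bases) in the RefSeq promoter windows of 32 genes, as distance in bases from the annotated transcript start (dotted line), with windows of genes that have several starts laid over each other. Of the 11 genes that rose with suffix R (red), 8 hold a match, with related copies counted separately. In Isg15 the matches start 78, 72 and 66 bases before the start.

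Ifitm3, which encodes a membrane protein that blocks the entry of viruses, was the most abundant gene of the set in every library, at 712, 1489.8, 1419 and 2562 FPKM. Bst2 (tetherin, which holds budding virions at the cell surface) and Isg15 (a ubiquitin-like modifier) came next in each library. The lowest in every library was Mx1, a GTPase against influenza viruses that carries a deletion in many laboratory strains, at 0.204, 0.559, 1.87 and 4.65 FPKM. The median gene of the set was at 15.3, 20.4, 26.9 and 34.6 FPKM.

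**Figure D2:**
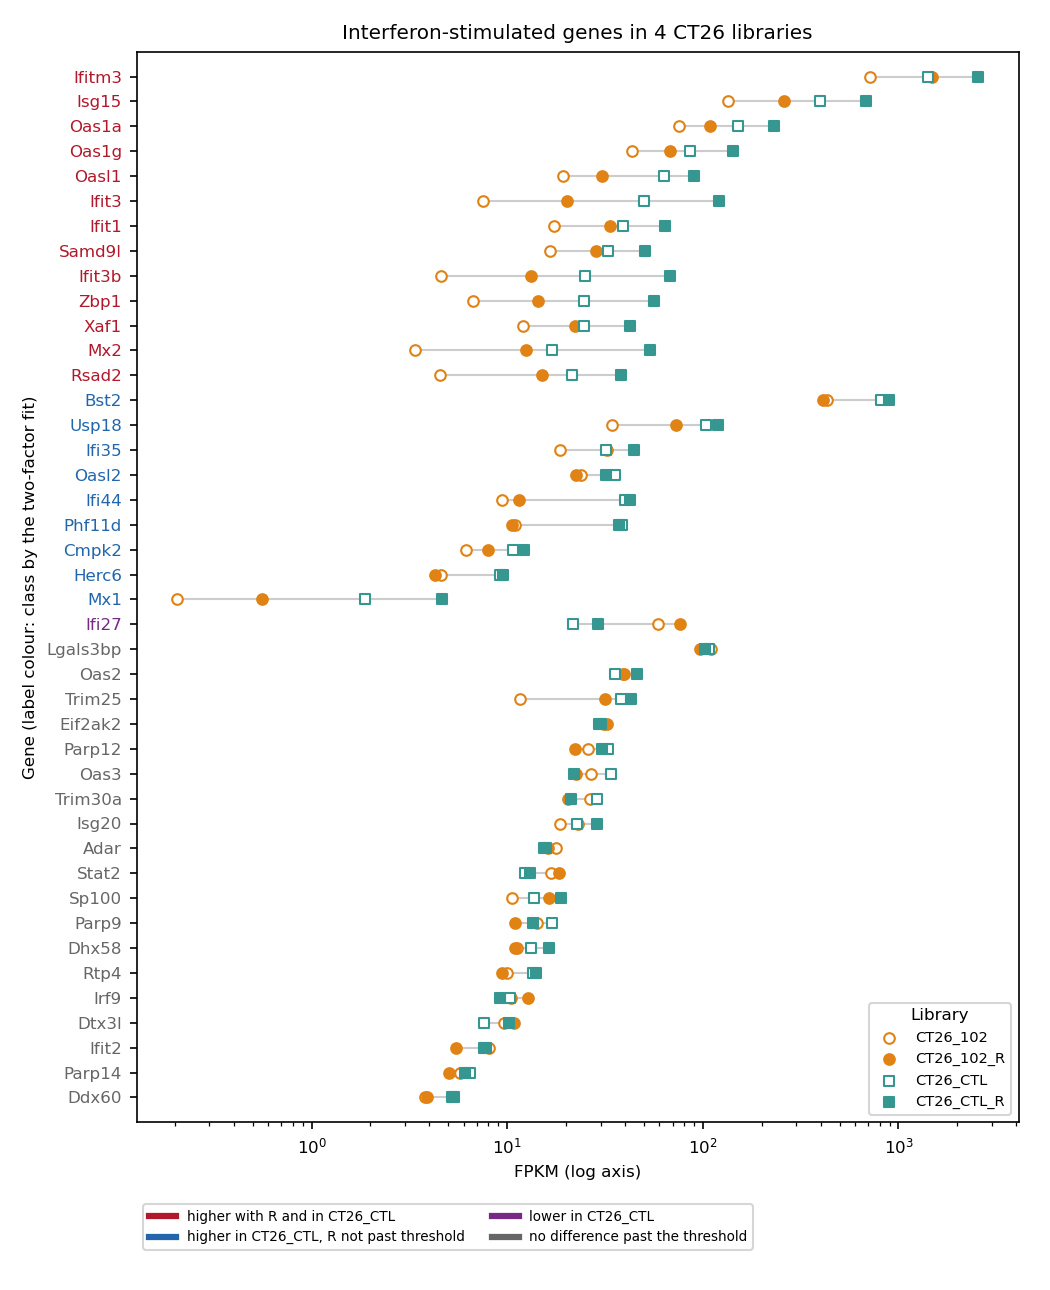
FPKM (log axis) of each of the 42 genes in the 4 libraries, with circles for stem CT26_102, squares for stem CT26_CTL and filled symbols for suffix R. For 17 of 42 genes, against 9.28% of all tested genes, the levels climb from CT26_102 through CT26_102_R and CT26_CTL to CT26_CTL_R.

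Between stems, 22 of 42 genes were higher in CT26_CTL than in CT26_102, and 1, Ifi27, was lower. Over all tested genes 9.44% were higher and 12.5% lower. CT26_CTL stood above CT26_102 both without and with R for 32 genes, against 34% of all tested genes, and by over 0.5 on the log2 scale both ways for 20, against 7.6%. Those higher were led by Ifit3, Ifit3b and Mx2 and included Isg15, Zbp1, Rsad2, Oasl1, Ifi44, Phf11d and Bst2. Folds between the stems were 1.48 (Oasl2) to 9.15 (Mx1) without the suffix and 1.37 (Ifi35) to 8.32 (Mx1) with it. Mx1 met the level for testing only through the CT26_CTL libraries, and 21 genes were called without it. The highest folds of these were 6.64 and 5.96, both of Ifit3. The median stem difference of the set was 0.61 on the log2(FPKM + 1) scale, against -0.05 over all tested genes.

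With suffix R, 13 of 42 genes rose and 0 fell, while 7.57% of all tested genes rose and 5.32% fell. The 13 were Ifit1, Ifit3, Ifit3b, Ifitm3, Isg15, Mx2, Oas1a, Oas1g, Oasl1, Rsad2, Samd9l, Xaf1 and Zbp1. Their folds were 1.44 (Oas1a) to 3.69 (Mx2) in stem CT26_102 and 1.42 (Oasl1) to 3.15 (Mx2) in stem CT26_CTL. At an unadjusted p under 0.05 by limma the count higher with R was 19 (19.2% of all tested genes), adding Ifi27, Ifi35, Mx1, Sp100, Trim25 and Usp18, and the count lower was 2 (16.9%), Oas3 and Trim30a. The median suffix difference was 0.26, against 0.00 (rounded from 0.0042) over all tested genes. Beside this, 7 myeloid marker identifiers summed to 24.9, 119.5, 42.9 and 91.0 FPKM, mostly Cd68 at 8.49, 63.9, 28.3 and 86.4 and Lyz2 at 15.02, 53.1, 13.1 and 4.36. In CT26_102 both of these genes were higher with R, whereas in CT26_CTL Cd68 alone was and the other 6 identifiers were lower. Their part in the differences with R was not tested. More cells of a type and more RNA per cell cannot be told apart in these bulk libraries.

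Calls came from limma on log2(FPKM + 1) over all 11955 genes, with stem and suffix in 1 model (the joint fit) and Benjamini-Hochberg adjustment at 0.05. The joint fit has 1 residual degree of freedom, so its spread is how far the suffix difference varied between the stems, helped by a prior of 4.01 degrees of freedom that limma takes from all genes. With only the tested division in the fit, 0 of the 42 genes passed for either division, with 0% of all tested genes higher with R and 0.0502% higher in CT26_CTL, and 0 for the suffix and 18 for the stem had an unadjusted p under 0.05, against 10.7% and 16.7% of all tested genes. In the joint fit without the level filter, 0 of all 27670 genes passed, the 42 included. There 20 and 29 of the 42 had an unadjusted p under 0.05, against 17.8% and 21% of all genes.

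On the log2(FPKM + 1) scale Ifit3, Ifit3b and Mx2 had the largest stem and suffix differences, while by fold, and with a pseudocount of 0.1, Mx1 had the largest stem difference. Ifit3 (ENSMUSG00000074896, chromosome 19, 34583531 to 34588731), a tetratricopeptide protein that works with IFIT1 against viral RNA, was at 7.53, 20.3, 50.01 and 121 FPKM. Neither stem overlapped the other, and CT26_102_R stayed below CT26_CTL. Its stem difference was 2.55 ± 0.12 (SE, joint fit, 2 libraries on each side, limma adjusted p = 0.00316) and its suffix difference 1.29 ± 0.12 (adjusted p = 0.0179). Ifit3b (ENSMUSG00000062488, chromosome 19, 34607970 to 34613401), its adjacent copy, was at 4.61, 13.3, 25.1 and 68.1 FPKM, again with no overlap between stems. The stem difference was 2.24 ± 0.12 (limma adjusted p = 0.00338) and the suffix difference 1.38 ± 0.12 (adjusted p = 0.0177). Mx2 (ENSMUSG00000023341, chromosome 16, 97535308 to 97560900), which GENCODE M21 types as a polymorphic pseudogene, encodes a GTPase related to Mx1. It was at 3.38, 12.5, 17.0 and 53.5 FPKM, with a stem difference of 2.03 ± 0.13 (limma adjusted p = 0.00408) and a suffix difference of 1.61 ± 0.13 (adjusted p = 0.0155).

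**Figure D3:**
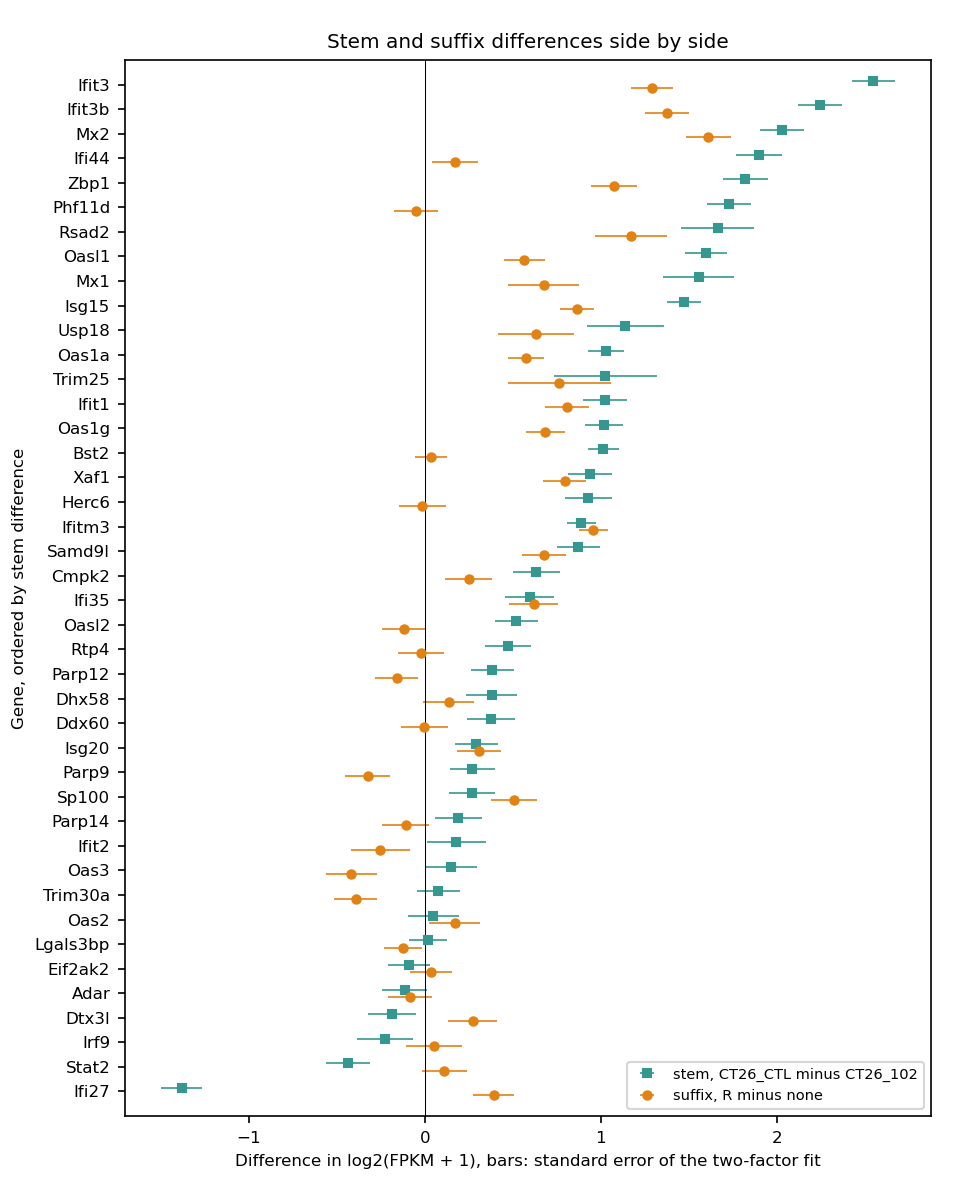
Stem difference (squares, CT26_CTL minus CT26_102) and suffix difference (circles, R minus none) of each gene on the log2(FPKM + 1) scale, with bars for the standard error of the joint fit. Stem differences reach 2.55 (Ifit3) and suffix differences 1.61 (Mx2), while Ifi44, Phf11d, Bst2 and Herc6 have stem differences of 0.93 to 1.90 beside suffix differences of -0.05 to 0.17.

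The stem difference and the suffix difference were then compared gene by gene. Both are computed from the same 4 libraries, so no overlap between their calls is read as a result. In this balanced layout their difference equals CT26_CTL minus CT26_102_R, with a lone library on each side. Neither side has a spread of its own. Calls on this difference use the spread of the joint fit and assume that both libraries vary like the rest. CT26_CTL, without the suffix, stood above CT26_102_R for 31 of 42 genes, against 45.7% of all tested genes. In the joint fit 7 genes had a larger stem than suffix difference past the threshold, with 3.65% of all tested genes in that direction. These were Phf11d, Ifi44, Ifit3, Oasl1, Bst2, Herc6 and Ifit3b. In the other direction only Ifi27 passed, with 6.75% of all tested genes. The comparison keeps signs, and Ifi27 passed because its stem difference was negative (-1.38) and its suffix difference positive (0.39), not the larger in size.

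Phf11d (ENSMUSG00000068245, chromosome 14, 59347407 to 59365470) belongs to a family of PHD finger proteins. It was at 11.002, 10.6, 38.8 and 37.4 FPKM, so the stems did not overlap, and within each stem the values with and without R were close. Stem minus suffix difference was 1.78. Ifi44, an antiviral protein whose action is not settled, was at 9.41, 11.4, 40.2 and 42.7 FPKM. Its stem minus suffix difference was 1.73. Bst2 was at 431, 413, 814 and 892 FPKM, with both CT26_CTL libraries above both CT26_102 libraries. Herc6, the main ligase for ISG15 in the mouse, was at 4.57, 4.30, 9.18 and 9.50 FPKM, about the same with and without R in each stem. For these 4 genes the suffix differences were -0.05, 0.17, 0.04 and -0.01, and their adjusted p-values in the joint fit lay between 0.380 and 0.948. A p above the threshold does not show that the suffix left them unchanged.

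Ifi27 (ENSMUSG00000064215, chromosome 12, 103434211 to 103440239), a small membrane protein of mitochondria and the nuclear envelope, ran the other way. Its FPKM was 59.0, 76.6, 21.7 and 29.2, with both CT26_102 libraries above both CT26_CTL libraries. The stem difference was -1.38 ± 0.12 (limma adjusted p = 0.00691), and the suffix difference of 0.39 did not pass (adjusted p = 0.0825).

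Each stem gave its own suffix difference, from separate libraries. The gene was higher with R in both stems for 25 of 42 genes, against 39.1% of all tested genes, and by over 0.5 on the log2 scale in both for 12, against 8.04%. The median R difference of the set was 0.28 in CT26_102 and 0.25 in CT26_CTL, and it was smaller in CT26_CTL for 23 of 42 genes, against 56.6% of all tested genes. For most genes that rose, the folds in both stems were alike, but this likeness was partly built into the call. The spread of the joint fit is the gap between the R differences of the stems, so genes with unlike folds pass less easily. Isg15 changed 1.93 and 1.72 times, Zbp1 2.14 and 2.28 times, and Xaf1 1.84 and 1.72 times. Because CT26_CTL started higher, like folds were unlike amounts of transcript. Ifit3 gained 12.8 FPKM in CT26_102 and 70.9 in CT26_CTL, Zbp1 7.63 and 31.5, and Isg15 126 and 287.

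The R differences of the stems were over 0.5 apart on the log2 scale for 4 of 42 genes, against 16.1% of all tested genes. Trim25, an E3 ligase that activates the RNA sensor RIG-I, was at 11.7, 31.6, 38.1 and 42.8 FPKM. Its fold with R was 2.70 in CT26_102 and 1.13 in CT26_CTL, and CT26_102 alone stood apart from the other libraries. Usp18, the protease that removes ISG15 and damps the receptor, was at 34.4, 72.6, 104 and 119.8 FPKM, with folds of 2.11 and 1.16. Rsad2 (viperin, which makes a chain-terminating nucleotide) was at 4.51, 15.02, 21.5 and 38.3 FPKM, with folds of 3.33 and 1.78. In these 3 genes the fold was larger in CT26_102, where the level without R was lower. That level is also the denominator of the fold and comes from 1 library, so these are not separate observations. Mx1 was over 0.5 apart the other way on the log2(FPKM + 1) scale, though its folds of 2.74 and 2.49 were alike, since the pseudocount of 1 is larger than its FPKM in CT26_102. With 1 library per combination the joint fit leaves no test of these differences between stems.

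**Figure D4:**
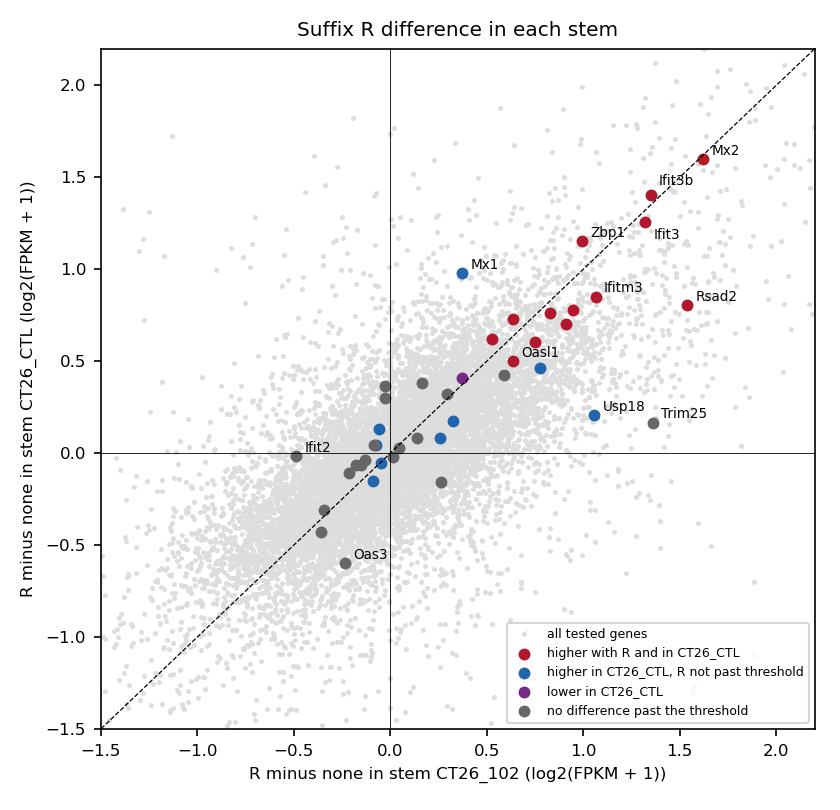
Difference R minus none on the log2(FPKM + 1) scale in stem CT26_102 (horizontal) and in stem CT26_CTL (vertical) for the 42 genes, over all tested genes in grey, with the dashed line where both are equal. Mx2, Ifit3 and Ifit3b lie near the line at 1.26 to 1.62, while Rsad2, Usp18 and Trim25 lie to its right.

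Counts by role rest on few genes and say little, and the share of all tested genes passing in both divisions was not computed. Both ISGF3 subunits of the set missed the threshold. Stat2 was at 16.7, 18.5, 12.3 and 13.1 FPKM and Irf9 at 10.5, 12.8, 10.4 and 9.19. Neither differed past it in either division (stem differences -0.44 and -0.23, suffix differences 0.11 and 0.05), and 1 of them, Stat2, had an unadjusted p under 0.05 by limma, for the stem, where 2 genes of the set (Ifi27 and Stat2) and 23.1% of all tested genes were lower in CT26_CTL at that level. Both stem differences pointed to lower levels in CT26_CTL, against the direction of most effectors. For Irf9 this came from the pair with R (-0.44), while the pair without R was nearly level (-0.02).

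Of the 4 genes of the ISG15 system, 1 rose with R and 3 were higher in CT26_CTL, against 7.57% and 9.44% of all tested genes. Isg15 (ENSMUSG00000035692, chromosome 4, 156199424 to 156200818) was at 135, 261, 399 and 686 FPKM, so the CT26_CTL library without R already exceeded CT26_102 with it. The stem difference was 1.47 and the suffix difference 0.86. Usp18 and Herc6 passed for the stem (differences 1.14 and 0.93), whereas Trim25, at 1.03, did not (limma adjusted p = 0.0644).

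The 4 Ifit genes lie close together on chromosome 19, between 34550694 and 34650009. Of these, 3 passed for the suffix and for the stem, where 7.57% and 9.44% of all tested genes were higher. Ifit1, which binds viral RNA with foreign caps, was at 17.4, 33.6, 39.1 and 64.3 FPKM, highest in CT26_CTL_R and lowest in CT26_102. Ifit2, at the end of the cluster, was at 8.10, 5.49, 7.75 and 7.65 FPKM, with a stem difference of 0.18 and a suffix difference of -0.25, neither past the threshold. Its difference from the neighbouring genes was not tested. Ifit3 and Ifit3b are uncertain as separate genes, since 61.81% of the 31-base stretches in Ifit3 transcripts also occur in Ifit3b transcripts, and 54.14% the other way.

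Mx2 was higher in CT26_CTL and rose with R. Mx1 was 9.15 and 8.32 times higher in CT26_CTL, from levels below 1 FPKM in CT26_102. Since it was tested only through its levels in CT26_CTL, its stem call is no independent test. Its suffix difference of 0.68 did not pass (limma adjusted p = 0.0832). They share 7.22% of the stretches in Mx1.

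The OAS enzymes make the 2-5A signal that activates RNase L, and of 6 genes 3 rose with R and 4 were higher in CT26_CTL. The shares over all tested genes were 7.57% and 9.44%. Oas1a was at 75.6, 109, 150.4 and 232 FPKM and Oas1g at 43.3, 67.9, 85.8 and 143. In both the 4 libraries stood in the same order, and 68.73% of the stretches in Oas1a transcripts also occur in Oas1g, so their values may share reads. Their neighbours in the cluster on chromosome 5 did not pass in either division. Oas2 was at 39.7, 38.9, 35.7 and 46.3 FPKM and Oas3 at 26.7, 22.5, 33.9 and 22.03, with suffix differences of 0.17 and -0.42. Oasl1, a relative that restrains translation of Irf7, was at 19.3, 30.5, 63.4 and 90.0 FPKM. Its stem difference of 1.60 was larger than its suffix difference of 0.57. Its suffix call was lost with a pseudocount of 0.1 and without the mean-variance trend, which also ended that of Oas1a. Oasl2, the gene next to it, was at 23.9, 22.4, 35.5 and 31.8 FPKM and passed for the stem (0.52), while its suffix difference was -0.12.

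Rsad2 and Cmpk2 are neighbours on chromosome 12, and CMPK2 supplies the nucleotide that viperin converts. Rsad2 passed in both divisions (stem 1.66, suffix 1.17). Cmpk2 was at 6.17, 7.97, 10.7 and 12.2 FPKM, in the same order of libraries with a smaller spread, and passed for the stem alone (0.63, against 0.25 for the suffix). The difference between both genes was not tested.

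Among 6 genes that bind, edit or degrade RNA, Zbp1 alone passed, in both divisions. ZBP1, which senses Z-form nucleic acid and can start necroptosis, had transcript at 6.69, 14.3, 24.7 and 56.2 FPKM, with both CT26_CTL libraries above both CT26_102 libraries. Its stem difference was 1.82 and its suffix difference 1.07. The kinase gene Eif2ak2 (PKR) was at 31.3, 32.3, 29.5 and 30.01 FPKM and the RNA editing gene Adar at 17.8, 16.2, 15.8 and 15.4, nearly level over the 4 libraries, and neither passed. Ddx60 and Dhx58, a pair of helicases of the RNA sensing pathway, and the exonuclease gene Isg20 had stem differences of 0.38, 0.38 and 0.29 and suffix differences of -0.0023, 0.14 and 0.31.

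At the membrane and outside it, Ifitm3 rose with R by 2.09 and 1.81 times and was higher in CT26_CTL by 1.99 and 1.72 times. It was the only one of the 13 genes that rose in which CT26_102_R stood above CT26_CTL, and its stem and suffix differences were 0.89 and 0.96. Bst2 passed for the stem alone. The secreted lectin-binding glycoprotein gene Lgals3bp was at 110.1, 97.1, 107 and 102.4 FPKM and Rtp4, a chaperone of receptors, was at 9.99, 9.38, 13.6 and 14.03, neither past the threshold.

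The poly(ADP-ribose) polymerase genes Parp9, Parp12 and Parp14 and the ligase gene Dtx3l, whose product pairs with PARP9, did not pass in either division. By limma at an unadjusted p under 0.05, 0 of the 4 differed with the suffix and 1 between stems. Over all tested genes the shares were 36.1% and 40.4%, so counts among 4 genes say little. Parp9 and Dtx3l start head to head on chromosome 16 and overlap over 458 exonic bases on opposite strands, and whether the authors counted by strand is not known here. Exons of Adar, Dhx58, Eif2ak2, Ifi35, Oasl1 and Usp18 also overlap a gene on the opposite strand. Those of Herc6, Irf9, Parp14, Rtp4 and Sp100 overlap a gene on their own strand. For Parp9 and Dtx3l the suffix differences were -0.32 and 0.27 and the stem differences 0.27 and -0.19.

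Of the other 8 genes, Samd9l and Xaf1 passed in both divisions. SAMD9L, which restricts poxviruses and limits translation, had transcript at 16.5, 28.5, 32.7 and 50.4 FPKM, and XAF1, which promotes apoptosis, had it at 12.1, 22.2, 24.6 and 42.5. Ifi35, a regulator of innate signalling, was at 18.6, 32.5, 32.0 and 44.5 FPKM and passed for the stem (0.60), while its suffix difference of 0.62 narrowly missed (limma adjusted p = 0.0501) and passed with either rescaling of the libraries. The nuclear body gene Sp100 and Trim30a, an inhibitor of NF-kB signalling, had suffix differences of 0.51 and -0.39, both short of the threshold. In all, 19 genes passed in no direction, with suffix differences from -0.42 (Oas3) to 0.76 (Trim25) and stem differences from -0.44 (Stat2) to 1.03 (Trim25).

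The rest of the interferon pathway was given by a list of 41 genes in the file, of which 30 were tested. With R, 2 of 30 rose, near the share of all tested genes (7.57%), and 0 fell. By limma 9 of 30 had an unadjusted p under 0.05 in either direction, against 36.1% of all tested genes. Ifnb1, the gene of interferon beta, was at 0.0543, 5.17, 0.458 and 26.4 FPKM. It was far higher in both libraries with R, but it reached the level for testing through those libraries alone, so its call, 1 of the 2, is no independent test. Of the other 9 ligand genes, 6 were listed at 0 in all libraries and none reached 1 FPKM. Irf7, the factor that amplifies interferon gene induction, was at 24.5, 34.1, 85.5 and 138 FPKM and was higher in CT26_CTL (1.87) and with R (0.57).

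Between stems 4 of the 30 were higher in CT26_CTL and 1 was lower, beside 9.44% and 12.5% of all tested genes. Those higher included Irf7, the RNA sensor gene Ifih1 at 7.40, 9.25, 12.8 and 13.3 FPKM and the phosphatase gene Ptpn2 at 8.27, 12.4, 17.2 and 17.7. Tmem173, which encodes the DNA sensing adaptor STING, was lower in CT26_CTL, at 17.2, 22.6, 9.12 and 12.3 FPKM (-0.84, limma adjusted p = 0.0179). The receptor genes Ifnar1 at 6.23, 5.596, 5.01 and 4.64 FPKM and Ifnar2 at 6.96, 7.36, 7.53 and 7.87 did not pass in either division. By limma 0 of the 5 tested receptor genes had an unadjusted p under 0.05 in either. Over all tested genes 36.1% did for the suffix and 40.4% for the stem. The kinase genes Jak1 at 16.8, 16.0, 12.4 and 11.3 and Tyk2 at 5.32, 7.38, 4.77 and 6.21 and the inhibitor gene Socs1 at 2.14, 1.44, 1.66 and 0.965 did not pass either.

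Markers of other cell types were examined because several of them express these genes strongly. Of 26 marker identifiers for T, NK, B, myeloid, plasmacytoid dendritic, fibroblast and endothelial cells, 6 reached 1 FPKM in any library, and their summed level was 90.4, 154, 67.3 and 110.7 FPKM. T and NK cell markers summed to 0.123 to 0.741 FPKM and the pan-leukocyte gene Ptprc was at 0.0217 to 0.0880, while Cd3e, Ms4a1, Siglech, Ncr1 and Cdh5 were listed at 0 in every library. Apart from the myeloid genes, fibroblast markers gave most of the sum, at 62.4, 31.5, 22.9 and 18.1 FPKM, and were highest in CT26_102. Of 4 epithelial markers, Epcam and Cdh1 were at 0 to 0.0202 FPKM, while the keratin genes Krt18 and Krt8 were at 34.7, 39.6, 42.5 and 76.5 and at 3.82, 2.74, 0.461 and 0.652. The mesenchymal gene Vim was at 503 to 782 FPKM.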

How the data were processed

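Gene expression was measured in 4 CT26 libraries, prepared from total RNA with a SMARTer mRNA-seq kit per the labels. The deposited table holds FPKM per Ensembl gene as computed by the authors. The submitters' processing notes name GRCm38 and mm10. The sources used here give no aligner, quantification tool, annotation or strandedness. Positions, exonic lengths and transcripts came from GENCODE M21 (GRCm38), which holds all 42 genes, and promoter windows from RefSeq (GRCm38.p6), where 32 of the 42 matched by symbol.

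Depth was estimated from the steps of low FPKM values in genes of at least 300 exonic bases. Between 36.17% and 37.61% of values under 5 reads were whole within 0.02 reads, so depths are approximate and no counting intervals were computed.

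R 4.3.3 with limma 3.58.1 (lmFit, eBayes with trend, two-sided) was run on log2(FPKM + 1) for genes that reached 1 FPKM in 2 or more libraries, with no rescaling. The fit was run on simulated data with independent noise and true differences for the suffix alone. Such data cannot show how calls fare in genes whose R difference varies between the stems, so they are not used as support. The pseudocount of 1 understates folds of low genes, so ratios of FPKM are given as folds. An exact permutation test of 2 against 2 libraries cannot go below p = 0.333, so none was run. The stem is the pairing of the libraries and is a term of the joint fit, and the replicate numbers only name samples.

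The members, the pathway and marker lists, and the tests were chosen with earlier results of these data known. FPKM of each library was printed for members past the threshold in either division, for the most abundant members, and for ISGF3, with full statistics for the 3 with the largest difference. Other genes are given for contrast and were chosen after their values were seen. One gene of the pathway list is not reported here.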

Additional observations from a re-analysis of the deposited data

Results flagged for a closer look

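Signs were opposite in the matched pairs for 10 of the 42 genes. The share over all tested genes was not computed, so the counts are not read as a result about the set. For 7 the suffix difference changed sign between the stems, and for 4 the stem difference changed sign between the libraries without and with R. The R difference in CT26_CTL minus that in CT26_102, on the log2(FPKM + 1) scale, was 0.47 for Ifit2, -0.42 for Irf9, 0.39 for Oas2, -0.36 for Oas3 and 0.32 for Dhx58. It was 0.19 for Bst2, 0.12 for Rtp4, 0.12 for Herc6, 0.11 for Lgals3bp and -0.037 for Ddx60. Each value rests on 1 library per combination, so these differences were not tested.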

How the results depend on the processing

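Calls rested on having stem and suffix in 1 model and on the level filter. With the tested division alone, the number of genes higher with R went from 13 to 0 and the number higher in CT26_CTL from 22 to 0, while over all genes 0 and 6 were higher. Without the level filter both counts, and the count of genes whose stem and suffix differences differed (8), went to 0, as did those over all 27670 genes, and the cause was not tested. That last count was 5 without the mean-variance trend, where Ifi35 and Oasl2 also lost their stem calls and Oas1a and Oasl1 their suffix calls. With 1 library left out, 1 side of the tested division is a lone library with no spread of its own. Calls from the other 3 would assume that it varies like the rest, so none are given. In that design stem and suffix are partly mixed. The median suffix difference was 0.25 to 0.28 and the median stem difference 0.54 to 0.73 in the matched pairs that stayed complete, with no test. A pseudocount of 0.1 gave a median suffix difference of 0.29 and upper-quartile rescaling 0.21. With that pseudocount, the filter at 5 FPKM, either rescaling or no trend, 11 to 15 genes were higher with R (5.61% to 13.6% of all tested genes) and 20 to 23 higher in CT26_CTL (8.11% to 15%). No called gene changed direction in these alternatives. The filter and the trend leave each difference as it was, so only the pseudocount and the rescalings could have changed one. Depth is approximate, and levels below 1 FPKM (Mx1 in CT26_102) are the least certain.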
